A study of Mus musculus with 2 samples.

Results

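The endothelin genes described here are 5 genes chosen by name out of the 32285 genes in the files: the ligand genes Edn1 and Edn3, the receptor genes Ednra and Ednrb, and Ece1, which encodes endothelin converting enzyme. Endothelins are short secreted peptides that are cut from longer precursors, and the final cut is made by endothelin converting enzymes such as the Ece1 product. The peptides act on G protein-coupled receptors of the cell surface. In the pharyngeal arches, Edn1 from epithelium, arch mesoderm and endothelium acts on Ednra of the neural crest mesenchyme, largely through the Gq class of G proteins and phospholipase C beta, and turns on the lower jaw factors Dlx5, Dlx6 and Hand2. Edn3 and Ednrb are best known from melanoblasts, enteric neural crest and glia. The values below therefore address how the receptors were divided between mesenchyme and glia, how Ednra was distributed over the regions of the face, and how both compared between mutant and control.

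The study sorted cranial neural crest cells (CNCCs) from E11.5 mouse heads and profiled them by single-cell RNA-seq. Both groups carried Wnt1CRE, a driver active in the dorsal neural tube and its neural crest, and were homozygous for the r26 mTmG reporter, which marks the recombined cells and their descendants with membrane GFP. Control embryos were Tfap2a wt/flox and Tfap2b wt/flox, and mutant embryos were flox/flox at both genes, which encode transcription factors of the TFAP2 family. Heads were cut below pharyngeal arch 2, GFP-positive cells were sorted, and each group was 1 library made from a pool of 2 embryos.

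The filtered data held 5625 control cells with a median of 13478 unique molecular identifiers (UMIs, each marking 1 captured transcript) and 5587 mutant cells with a median of 12234. A UMI of at least 1 endothelin gene was found in 3070 control and 2754 mutant cells. Because each group was 1 library, no difference below has a replicate check, no p-value is given, and the bracketed ranges are 95% intervals that hold counting error alone. Xist was found in the control and Y-linked transcripts in the mutant library, so that sex and genotype cannot be told apart. The targeted genes themselves were still counted in the mutant library. Tfap2a was at 19.3 counts per 1000000 UMIs (CPM) in control and 13.6 CPM in mutant mesenchyme, and Tfap2b at 56.2 and 46.9 CPM. In glia Tfap2a was higher in the mutant library, at 87.0 CPM in control and 127 CPM in mutant cells. Its log2 ratio of mutant over control there was 0.55 [0.31, 0.79], and Tfap2b was at 202 and 198 CPM. Reads from the 3′ end cannot tell a floxed allele from a recombined one, so these values check nothing about the deletion. After filtering, 5 cell barcodes were shared by both libraries.

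Cells were divided without using the endothelin genes. Mesenchyme (3716 control and 2730 mutant cells) was marked by Prrx1, Prrx2 and Twist1. Its clusters were frontonasal-like M0 (Six2, Tfap2b) and M3 (Alx1, Pax7), maxillary-like M1 (Lhx6, Lhx8), mandibular-like M2 (Hand2, Hand1), mural-like M6 (Acta2, Tagln), and M4 and M5, which got no cell type name and are called by their leading genes Hoxa2/Emx2 and Cyp26a1/Hmx1. Glia (154 control and 180 mutant cells) comprised satellite glia-like G0 (Fabp7), melanoblast-like G2 (Pmel, Dct) and the unnamed Prss56/Egr2 cluster G3. The third class, called neuronal below, held 1512 control and 2456 mutant cells of neural tube and neurons, led by the unnamed Ttr/Fgf8 cluster N0. A sensory neuron-like cluster that fell within the glia class (G1, 93 control and 10 mutant cells) and 3 clusters rich in doublets (several cells under 1 barcode) were kept apart.

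The genes lie on GRCm38 (mm10) as follows. Ednra (ENSMUSG00000031616) is at chr8:77663031-77724464 on the minus strand and overlaps 4933431K23Rik. Ednrb (ENSMUSG00000022122) is at chr14:103814625-103844402 on the minus strand. Edn1 (ENSMUSG00000021367) is at chr13:42301476-42307990 and overlaps the antisense gene Gm47118. Edn3 (ENSMUSG00000027524) is at chr2:174760619-174784042, and Ece1 (ENSMUSG00000057530), at chr4:137862237-137965229, overlaps the antisense gene Gm13012. Each overlapping gene lies on the strand opposite to that of the endothelin gene. The strand setting of the counting is not given in the sources used here, so whether reads of the opposite strand were counted was not checked.

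Because the mutant embryos were designed to lose TFAP2 proteins, which are known to bind the palindrome GCCNNNGGC, the promoter windows of the 5 genes were searched for these letters. The palindrome reads the same on both strands. A window ran from 250 bases before to 50 bases after a RefSeq start site in GRCm38.p6, and 16.6% of all 32851 windows held the letters. They were found once each in the windows of Ednrb and Edn3 and in 1 of 4 windows of Ece1, and not in those of Ednra and Edn1. The stretches are shown in the direction of the gene with the palindrome in capitals.
Ednrb, chr14:103843879-103843905, minus strand: ttgacgtatGCCCTTGGCcgctaggtg
Edn3, chr2:174760610-174760636, plus strand: cctgggtaaGCCTGGGGCgaatgcgcc
Ece1, chr4:137913590-137913607, plus strand: cgtgtggtcGCCGCTGGC
In Ednrb the match began 195 bases before the start site, in Edn3 at base 1 after it, and in Ece1 at base 42 after it. Such a match is a description of the letters and does not show binding.

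The ligands came first along the pathway. Edn1, the ligand of lower jaw patterning, was almost absent from the sorted cells, with 2 UMIs in the control and 27 in the mutant library. Of the mutant UMIs, 21 came from 1 cell of mural-like cluster M6. This cell held 22755 UMIs in all, among them 152 of Acta2, 174 of Tagln and 69 of Rgs5, which are genes of smooth muscle and pericytes. It held 0 UMIs of the endothelial genes Pecam1 and Cdh5 and 0 of the epithelial gene Epcam. Each of the other 7 cells with Edn1 held 1 or 2 UMIs, and 1 of these, in a doublet-rich cluster, also held 20 UMIs of Epcam. No fold is given for Edn1, since 1 cell carried most of its UMIs. The known sources of Edn1 outside the neural crest were scarce in both libraries, with the summed UMIs of the endothelium, surface epithelium and arch mesoderm lists between 8.69 and 22.8 CPM. The blood and macrophage list differed widely between the libraries, at 747 CPM in all control and 2.08 CPM in all mutant cells (198 and 1.89 CPM in mesenchyme, 8.77 and 1.08 CPM in glia). Its part in the values of the endothelin genes was not tested. Edn2, the third ligand gene of the family, had 0 UMIs in mesenchyme and in glia.

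Edn3, the ligand known for its action on Ednrb in melanoblasts, was counted in mesenchyme rather than glia. Its mesenchyme level was 13.1 CPM [12.2, 14.1] in the control and 14.3 CPM [13.2, 15.5] in the mutant library, from 749 and 598 UMIs. The log2 ratio of mutant over control was 0.13 [-0.03, 0.29], an interval that includes 0. After thinning of each cell to 5000 UMIs the ratio was 0.31 [0.03, 0.59]. Glia held only 3 control and 5 mutant UMIs of Edn3, and neuronal cells 12 and 23.

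Edn3 was not even over the mesenchyme. In the control library it was highest in mural-like cluster M6 (20.6 CPM), Hoxa2/Emx2 cluster M4 (20.5 CPM), Cyp26a1/Hmx1 cluster M5 (17.4 CPM) and mandibular-like cluster M2 (16.0 CPM), and lower in maxillary-like cluster M1 (10.5 CPM) and frontonasal-like clusters M0 (10.2 CPM) and M3 (9.4 CPM). Among neighbours in this order, only M2 and M1 differed beyond counting error, with a log2 ratio of 0.61 [0.28, 0.94]. The 2 frontonasal-like clusters thus stood at the lower end. In the mutant library the same 4 clusters were again the highest, at 25.8 CPM in M6, 25.1 CPM in M5, 16.9 CPM in M4 and 15.6 CPM in M2. Frontonasal-like cluster M3 was at 13.2 CPM there, a log2 ratio of mutant over control of 0.49 [0.06, 0.92] from 103 and 85 UMIs, and the other regions had intervals that included 0.

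**Figure D1:**
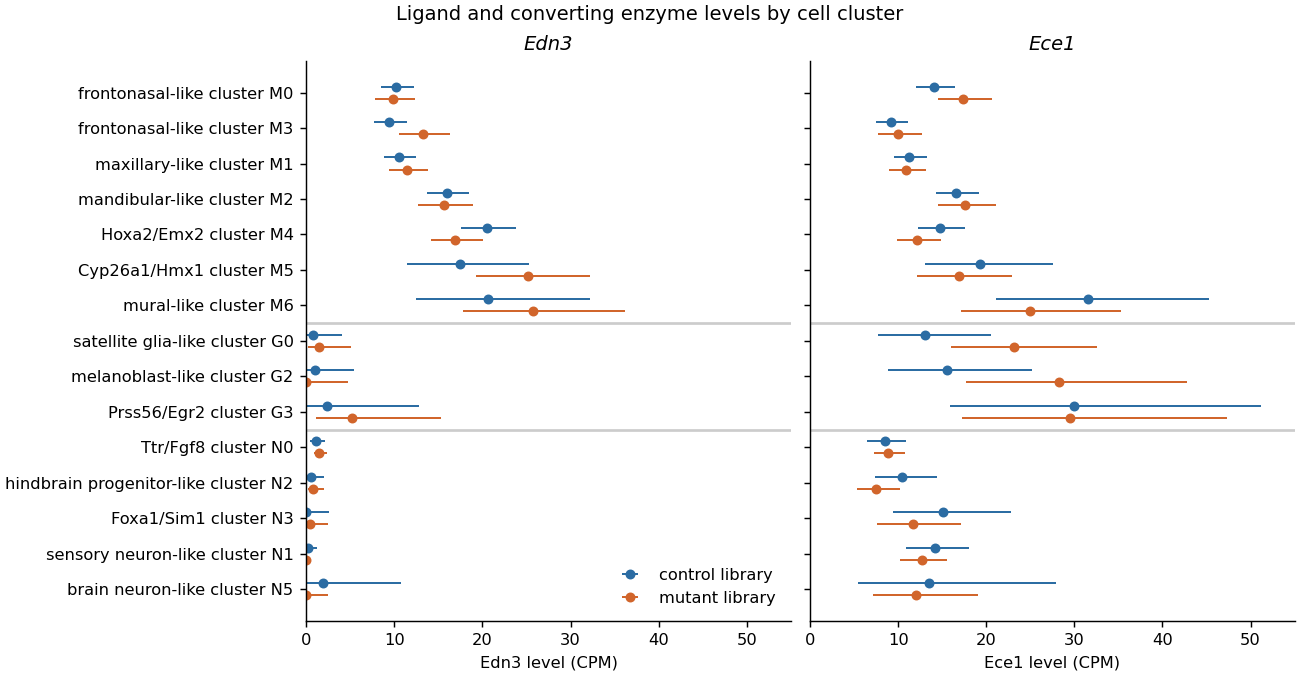
Edn3 (left) and Ece1 (right) in CPM for each cluster of mesenchyme, glia and neuronal cells, with the control library in blue and the mutant library in orange. Points are levels from summed UMIs and lines are 95% counting intervals. Edn3 lies between 9.4 and 25.8 CPM in the mesenchyme clusters and near 0 elsewhere, while Ece1 is present in all clusters.

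Ece1, the converting enzyme, was counted in every class. Its level over all cells was 12.9 CPM in the control and 13.0 CPM in the mutant library. In mesenchyme it was at 13.5 and 14.0 CPM, with a log2 ratio of 0.05 [-0.11, 0.21], and in neuronal cells at 11.0 and 10.0 CPM, with a ratio of -0.15 [-0.42, 0.12]. Mesenchyme and neuronal cells thus showed no difference in Ece1 beyond counting error. Within mesenchyme the highest level was in mural-like cluster M6, at 31.5 CPM in the control and 25.0 CPM in the mutant library, and the lowest was in frontonasal-like cluster M3, at 9.2 and 10.0 CPM. The log2 ratio of M6 over M3 was 1.78 [1.13, 2.39] in control and 1.33 [0.67, 1.96] in mutant cells.

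Glia differed from this in the mutant library. Ece1 there was at 16.5 CPM [12.1, 21.9] in control and 25.9 CPM [20.3, 32.6] in mutant cells, a log2 ratio of 0.65 [0.10, 1.22]. The count was small, 47 and 72 UMIs, and neither library reached the 100 UMIs that a gene needed here before a fold was read as a call. By cluster, Ece1 went from 13.0 to 23.2 CPM in G0 and from 15.5 to 28.3 CPM in G2, while it was 29.9 and 29.6 CPM in G3. The ratio in glia exceeded that in mesenchyme by 0.60 [0.03, 1.18] on the log2 scale. After thinning of each cell to 5000 UMIs the glial ratio was 0.39 [-0.61, 1.43], an interval that includes 0.

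The 2 receptor genes divided the classes between them, as the plot of receptor levels by cluster shows. Ednra, the receptor of the lower jaw pathway, was at 47.5 CPM [45.7, 49.3] in control and 42.4 CPM [40.5, 44.5] in mutant mesenchyme. In glia it was at 14.7 CPM [10.6, 19.9] and 10.4 CPM [6.99, 15.0], and in neuronal cells at 0.92 and 0.88 CPM. Ednrb, the receptor of glia and melanoblasts, had the opposite distribution. It was at 358 CPM [337, 381] in control and 550.2 CPM [523, 579] in mutant glia, and at 0.56 CPM [0.38, 0.79] and 0.79 CPM [0.55, 1.11] in mesenchyme. Neuronal cells lay between, at 38.6 and 46.7 CPM.

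**Figure D2:**
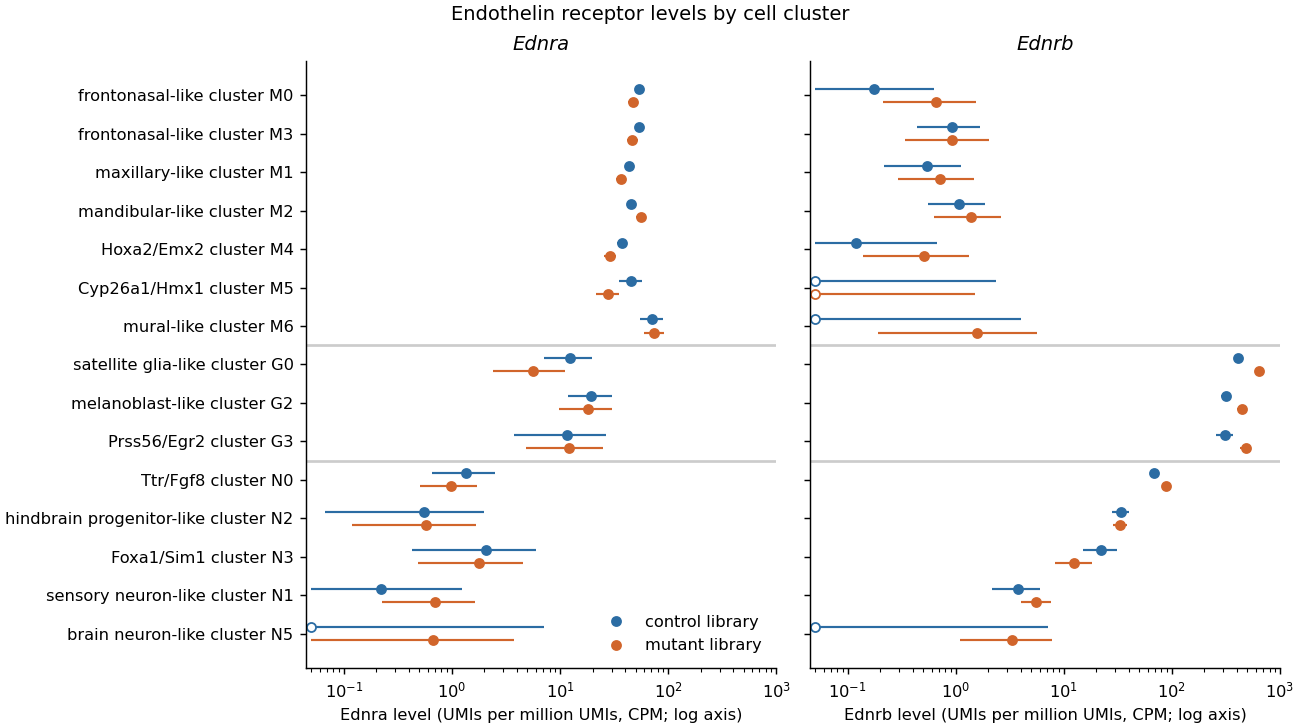
Ednra (left) and Ednrb (right) in CPM on a log axis for each cluster, with mesenchyme clusters at the top, glia in the middle and neuronal clusters at the bottom, control library in blue and mutant library in orange. Lines are 95% counting intervals and open points mark 0 UMIs, drawn at the left edge. Ednra lies between 28.0 and 74.2 CPM in mesenchyme clusters, and Ednrb between 308 and 635 CPM in glial clusters.

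Expressed as a ratio of glia over mesenchyme within each library, Ednrb differed by 9.32 [8.81, 9.88] on the log2 scale in control cells, or 639.9-fold, and by 9.44 [8.95, 9.99] in mutant cells, or 695-fold. For Ednra the same log2 ratio was -1.69 [-2.16, -1.25] in control and -2.02 [-2.61, -1.50] in mutant cells. The split was therefore much wider for Ednrb than for Ednra, in both libraries. Neuronal cells were nearer to glia, with Ednrb above mesenchyme by 6.11 and 5.88 and Ednra below it, at log2 ratios of -5.70 and -5.59. Each UMI marks 1 transcript end and is not scaled by gene length, so the UMIs of both receptors were also added up. Ednrb contributed 1.17% of the receptor UMIs of control mesenchyme and 1.83% of mutant mesenchyme, against 96.0% and 98.1% in glia and 97.7% and 98.1% in neuronal cells.

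Free RNA in droplets can place mesenchyme transcripts in other cells, so the level of Ednra outside mesenchyme was set against that of the 10 mesenchyme marker genes. In neuronal cells Ednra stood at 1.93% of its mesenchyme level in control and 2.08% in mutant cells, against a median of 2.01% and 1.67% for the markers. The neuronal level of Ednra is therefore at background. In glia Ednra stood at 31.0% [22.3, 42.1] and 24.6% [16.4, 35.5] of its mesenchyme level, above the marker medians of 2.20% and 2.38%. Among the markers, Col1a2 was the nearest to it, at 24.9% in control and 35.0% in mutant glia, and the other 9 lay lower. Conversely, Ednrb in mesenchyme was at 0.156% and 0.144% of its glial level, below the medians of 1.22% and 0.584% for the 10 glia markers. Its summed level in mesenchyme is therefore read as not above background, which says nothing about single cells. In neuronal cells Ednrb was at 10.8% and 8.49% of its glial level, against marker medians of 0.966% and 1.19%.

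Single cells were compared after each cell was thinned at random to 5000 UMIs, which sets all cells to the same depth. The share of cells with an Ednra UMI was then 20.8% in control and 17.9% in mutant mesenchyme, 7.19% and 5.59% in glia, and 0.339% and 0.379% in neuronal cells. Before thinning the shares in mesenchyme were 45.5% and 39.9%, and those in neuronal cells, at median depths of 10383 and 10350 UMIs against 14445 and 14276 in mesenchyme, were 0.992% and 1.02%. The share with an Ednrb UMI after thinning was 82.4% in control and 80.4% in mutant glia, and 0.191% and 0.299% in mesenchyme. Cells with both receptors were rare in mesenchyme, at 2 of 3665 control and 2 of 2675 mutant cells. In glia they were 10 of 153 control cells, or 6.54% [3.18, 11.7], and 9 of 179 mutant cells, or 5.03% [2.32, 9.33]. In each library 1 glial cell held Ednra alone. Ednrb was thus found in 90.9% [58.7, 99.8] of control and 90.0% [55.5, 99.7] of mutant glia with Ednra. Among glia without Ednra the shares were 81.7% and 79.9%, which lie within these wide intervals. The highest share of cells with both receptors was in melanoblast-like cluster G2, at 6 of 54 control and 3 of 44 mutant cells. Mutant cells of G3 were close to the latter, at 3 of 46.

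The distribution of Ednra over mesenchyme was examined next. In the control library, mural-like cluster M6 was highest at 70.6 CPM [54.5, 90.0], followed by frontonasal-like clusters M3 at 53.7 CPM [49.5, 58.3] and M0 at 53.6 CPM [49.5, 58.1]. Mandibular-like cluster M2 came next at 45.8 CPM [41.9, 49.9], with Cyp26a1/Hmx1 cluster M5 at 45.1 CPM [35.2, 57.0], maxillary-like cluster M1 at 43.2 CPM [39.7, 46.9] and Hoxa2/Emx2 cluster M4 at 37.6 CPM [33.5, 42.0]. Ednra was thus present in every region, and the highest cluster was not the mandibular-like M2. This holds for M2 as a whole, since its control cells with a UMI of Hand1 were at 63.9 CPM [53.1, 76.2]. Between neighbours in this order, the interval of the log2 ratio excluded 0 for M0 over M2, at 0.23 [0.06, 0.40], and barely for M6 over M3, at 0.39 with a lower bound of 0.0018. The other 4 pairs of neighbours did not differ beyond counting error. The whole span, from M6 to M4, was 0.91 [0.50, 1.30] on the log2 scale.

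In the mutant library the order of Ednra was different. Mural-like cluster M6 was again first at 74.2 CPM [60.0, 90.7], but mandibular-like cluster M2 was second at 56.2 CPM [50.6, 62.3]. Frontonasal-like clusters M0 at 47.5 CPM [42.8, 52.7] and M3 at 46.8 CPM [41.7, 52.4] followed. Below them were maxillary-like cluster M1 at 36.4 CPM [32.7, 40.4], Hoxa2/Emx2 cluster M4 at 29.2 CPM [25.6, 33.3] and Cyp26a1/Hmx1 cluster M5 at 28.0 CPM [21.7, 35.5]. Neighbours in this order differed beyond counting error except M0 and M3, and M4 and M5. M2 lay above M0 by 0.24 [0.03, 0.46] on the log2 scale, where it had lain below it in the control library. The span from M6 to M5 was 1.41 [0.94, 1.88].

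Mutant and control were then compared within each region. Over all mesenchyme Ednra was slightly lower in the mutant library, with a log2 ratio of -0.16 [-0.25, -0.07] from 2714 control and 1770 mutant UMIs. By region, the ratio was -0.17 [-0.37, 0.02] in M0, -0.20 [-0.40, 0.00] in M3 and -0.25 [-0.44, -0.05] in maxillary-like cluster M1. It was -0.36 [-0.61, -0.11] in Hoxa2/Emx2 cluster M4 and -0.69 [-1.19, -0.19] in Cyp26a1/Hmx1 cluster M5, where only 70 and 68 UMIs were counted. Mandibular-like cluster M2 went the other way, with a ratio of 0.30 [0.10, 0.49] from 510 control and 364 mutant UMIs. In mural-like cluster M6 the ratio was 0.07 [-0.40, 0.55]. In M0 the ratio was -0.51 [-0.84, -0.18] with each cell thinned to 5000 UMIs and -0.26 [-0.46, -0.06] without the 10 cells with the most Ednra UMIs, but -0.03 [-0.26, 0.20] at a higher and -0.02 [-0.18, 0.14] at a lower clustering resolution. In M1 it was -0.11 [-0.31, 0.09] at the higher resolution and -0.09 [-0.27, 0.10] without integration of the libraries.

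**Figure D3:**
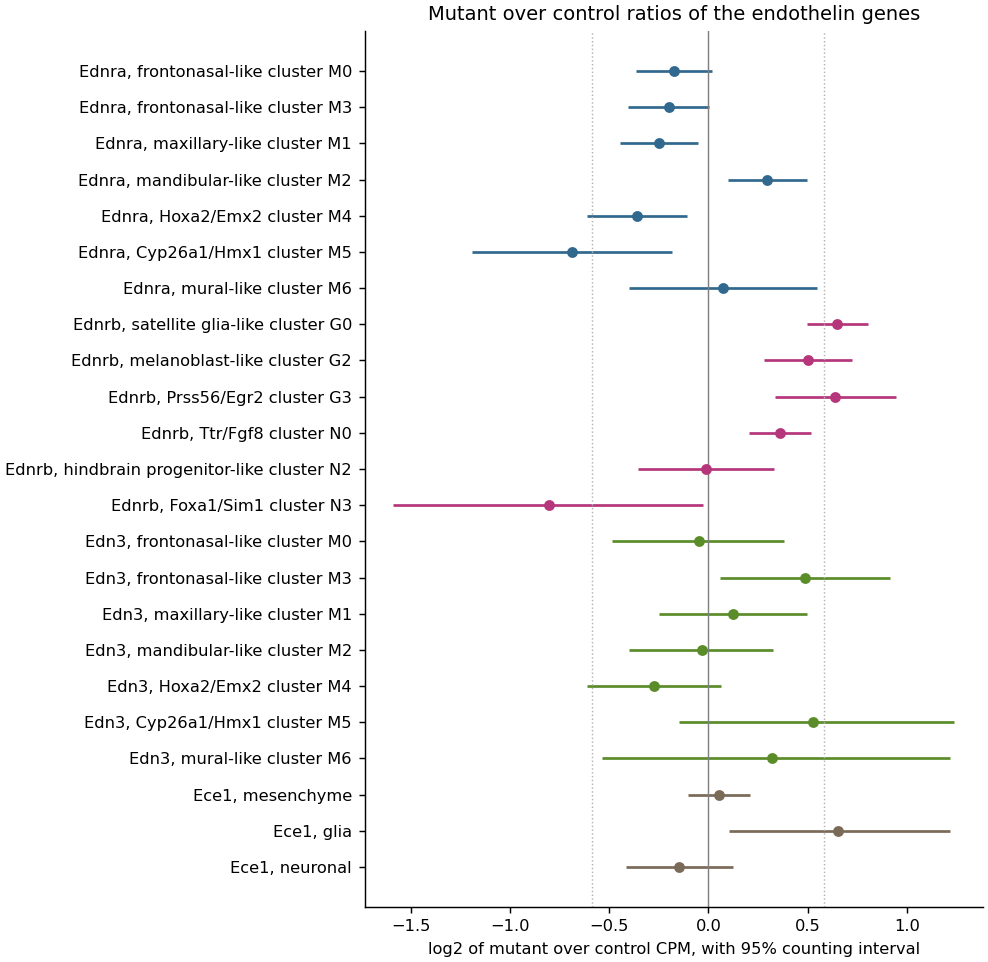
Log2 ratio of mutant over control CPM for Ednra, Ednrb, Edn3 and Ece1 in classes and clusters, with 95% counting intervals. The solid line marks equal levels and the dotted lines a 1.5-fold difference in either direction. Ednra is above 0 beyond counting error in mandibular-like cluster M2 (0.30) and below it in M1, M4 and M5, and Ednrb is between 0.50 and 0.65 in the 3 glial clusters.

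The difference between regions was put in numbers by subtracting log2 ratios. The Ednra ratio of M2 exceeded that of M0 by 0.47 [0.20, 0.75], of M1 by 0.55 [0.27, 0.82], of M3 by 0.50 [0.21, 0.78], of M4 by 0.66 [0.34, 0.98] and of M5 by 0.99 [0.45, 1.53]. Against mural-like cluster M6 the difference was 0.23 [-0.29, 0.74], which includes 0. These intervals hold counting error of single libraries, and whether the regions differ between embryos was not tested. The share of thinned cells with an Ednra UMI moved in the same directions in M0 to M5. It went from 17.7% in control to 25.3% in mutant cells of M2, and from 26.4% to 19.2% in M0. In M3 it went from 23.4% to 20.7%, in M1 from 19.2% to 16.8%, in M4 from 15.8% to 10.8% and in M5 from 20.3% to 12.7%. In M6 the share was 24.3% and 22.6%, while its CPM ratio was 0.07 [-0.40, 0.55].

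**Figure D4:**
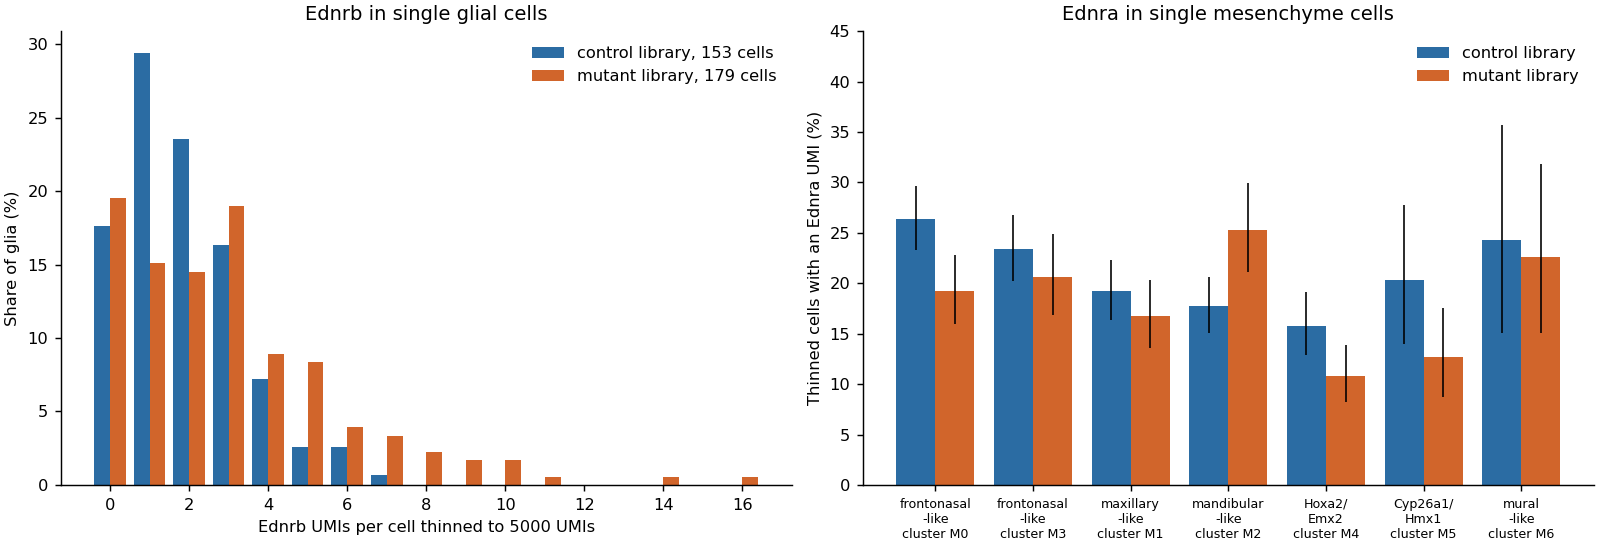
Left, share of glial cells (%) by the number of Ednrb UMIs in a cell thinned to 5000 UMIs, control library in blue (153 cells) and mutant library in orange (179 cells). Right, share of thinned mesenchyme cells with an Ednra UMI by cluster, with 95% Clopper-Pearson intervals. Glia with 5 or more Ednrb UMIs make up 5.88% of control and 22.9% of mutant cells, and M2 is the cluster in which Ednra is found in a larger share of mutant cells (25.3% against 17.7%), beyond both intervals.

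Regions were also defined by a UMI of 1 marker gene in place of clusters. Among mesenchyme cells with Hand2, a lower jaw factor, Ednra was at 47.3 CPM in 741 control cells and 56.7 CPM in 376 mutant cells, a log2 ratio of 0.26 [0.07, 0.45]. With Hoxa2, the selector gene of the second arch, the ratio was -0.19 [-0.48, 0.09]. With Lhx8, a factor of maxillary and mandibular mesenchyme, it was -0.08 [-0.22, 0.06]. Among these 3 sets, the higher level in the mutant library was thus seen only in the Hand2 cells. Hand2 is a leading gene of M2 and the cells come from the same libraries, so this set is no separate check of M2. The lower levels in M1 and M4 did not hold beyond counting error in this division.

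M2 itself was not the same mixture in both libraries. Its share of the mesenchyme class was 20.3% in control and 14.1% in mutant cells, and Hand1, a factor of the distal lower jaw, was at 53.8 CPM in its control and 22.1 CPM in its mutant cells. In M2 cells with a Hand1 UMI, Ednra was at 63.9 CPM in 133 control cells and 59.3 CPM in 44 mutant cells, a log2 ratio of -0.11 [-0.65, 0.41]. In M2 cells without one it was at 42.0 and 55.9 CPM, a ratio of 0.41 [0.19, 0.63]. Cells with a UMI of Gsc, a factor of the proximal and intermediate lower jaw, had Ednra at 41.8 and 56.0 CPM, a ratio of 0.42 [0.17, 0.67], and cells without one at 55.7 and 56.7 CPM, a ratio of 0.02 [-0.31, 0.36]. The control cells with Gsc or without Hand1 were therefore the ones with the lower Ednra. Whether this change in the makeup of M2 has a part in its Ednra level was not tested.

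Ednrb was described in the mesenchyme regions too, where few UMIs of it were counted. No region held more than 12 UMIs of Ednrb in a library, and M5 held 0 in both, which allows up to 1.93 CPM in the control and 1.24 CPM in the mutant library. In control cluster M3, 8 of the 10 UMIs were in 1 cell. No mutant over control ratio is drawn from these counts.

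In glia, Ednrb was higher in the mutant library by a log2 ratio of 0.62 [0.50, 0.74], or 1.54-fold, from 1021 control and 1528 mutant UMIs. With the neuron-like cluster G1 and the doublet-rich cluster of the glia class included, the levels were 222 and 485 CPM and the log2 ratio was 1.13 [1.02, 1.24]. With G1 alone added it was 1.19 [1.08, 1.31], and with the doublet-rich cluster alone 0.62 [0.51, 0.74]. G1 was 35.5% of the glia class in control and 4.9% in mutant cells, and its Ednrb was at 21.9 CPM in control cells. In satellite glia-like cluster G0 the level was 405 CPM [372, 439.7] in control and 635 CPM [594, 677] in mutant cells, a log2 ratio of 0.65 [0.50, 0.80]. In the Prss56/Egr2 cluster G3 it was 308 CPM [258, 365] and 479.9 CPM [425, 539.99], a ratio of 0.64 [0.33, 0.95]. In melanoblast-like cluster G2 it was 316 CPM [283, 353] and 448 CPM [402, 497], a ratio of 0.50 [0.28, 0.72]. All 3 clusters thus lay higher in the mutant library. The makeup of G0 differed between the libraries too. Its satellite or ganglion glia list summed to 3976 CPM in control and 3001 CPM in mutant cells. The Schwann cell precursor list was at 466 and 625 CPM there, and the neuron list at 399 and 306 CPM. Whether this has a part in the Ednrb ratio of G0 was not tested.

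The higher level of Ednrb in glia lay in the number of UMIs per cell rather than in the share of cells with a UMI. After thinning, the share of glia with Ednrb was 82.4% in control and 80.4% in mutant cells, whereas the mean number of Ednrb UMIs per cell was 1.88 in control and 2.98 in mutant glia and the median was 2 and 3. Cells with at least 5 Ednrb UMIs made up 5.88% of control and 22.9% of mutant glia, and the highest cell held 7 and 16. The log2 ratio was 0.65 without the 10 cells of each library with the most Ednrb UMIs.

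Outside glia, Ednrb was highest in the Ttr/Fgf8 cluster N0 of the neural tube, at 68.5 CPM [62.7, 74.8] in control and 88.0 CPM [82.8, 93.4] in mutant cells, a log2 ratio of 0.36 [0.21, 0.52]. The share of thinned N0 cells with Ednrb was 23.5% and 30.3%. In hindbrain progenitor-like cluster N2 it was 33.6 and 33.2 CPM, a ratio of -0.01, and in the Foxa1/Sim1 cluster N3 it was 21.9 and 12.6 CPM, a ratio of -0.81 [-1.59, -0.03] from only 32 and 28 UMIs. Sensory neuron-like cluster N1 held 3.76 and 5.57 CPM. The ratio of glia exceeded that of N0 by 0.26 [0.07, 0.45] on the log2 scale and that of all neuronal cells by 0.34 [0.17, 0.52]. N0 was not the same mixture in both libraries. Its roof plate and choroid plexus list summed to 260 CPM in control and 842 CPM in mutant cells, while its isthmic progenitor list was at 274 and 277 CPM. Whether this has a part in the Ednrb ratio of N0 was not tested.

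A gene was called when its levels were 1.5-fold or more apart and either library held 100 UMIs or more of it. Of the 5 endothelin genes, Ednra, Edn3 and Ece1 had enough UMIs in mesenchyme and 0 of these 3 were called, where 1.99% of all 11589 genes with enough UMIs were called higher and 0.906% lower. In glia only Ednrb had enough UMIs and it was called higher, where 3.18% of all 4722 genes were called higher and 2.69% lower. In neuronal cells Ednrb and Ece1 had enough UMIs and 0 were called, against 1.18% of all genes higher and 0.616% lower. Among the glial clusters Ednrb was called higher in G0, where 4.81% of all genes were called higher and 3.44% lower, and in G3, where 3.45% and 2.53% were, and not in G2, where 0.85% and 1.7% were. In mesenchyme clusters M0 to M4, 3 endothelin genes each had enough UMIs and 0 were called. The share of all genes called higher in these clusters was 3.05% in M0, 0.565% in M1, 0.535% in M2, 0.871% in M3 and 1.42% in M4, and the share called lower was 1.46%, 0.507%, 1.24%, 0.589% and 0.794%. In M5 and M6 no endothelin gene had 100 UMIs in either library.

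The other genes of the pathway were taken from lists and counted by the same rule. Of the lower jaw genes that act downstream of Ednra, 8 of 8 had enough UMIs in mesenchyme and 1 was called, Hand1, which was lower at 10.7 CPM in control and 3.72 CPM in mutant cells, a log2 ratio of -1.53 [-1.79, -1.27]. The median ratio of the list was -0.47, against 0.01 over all genes, of which 0.906% were called lower. Below the threshold were Gsc at -0.56 [-0.64, -0.48], Hand2 at -0.48 [-0.58, -0.39], Dlx6 at -0.47 [-0.58, -0.35] and Dlx5 at -0.30 [-0.37, -0.23], while Mef2c was at 0.19 [0.01, 0.36]. These values include the smaller share of mandibular-like cells in the mutant library. Within M2 alone, where Ednra was higher in the mutant library, 7 of the 8 genes had enough UMIs. Of these, 2 were called lower, where 1.24% of all genes were. These were Hand1, at -1.28 [-1.56, -1.02], and Dlx3, which was at 12.0 CPM in control and 4.33 CPM in mutant cells, a ratio of -1.47 [-2.12, -0.88]. Hand2 in M2 was at 202 and 177 CPM. In Hoxa2/Emx2 cluster M4, where Ednra was lower in the mutant library, 5 of the 8 genes had enough UMIs. Of these, 2 were called lower, Dlx3 at -0.62 [-0.82, -0.42] and Gsc at -0.84 [-1.06, -0.61], where 0.794% of all genes were.

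Of the upper jaw factors, 4 of 4 had enough UMIs in mesenchyme and 0 were called, with a median log2 ratio of 0.18 and values from -0.26 for Nr2f2 to 0.31 for Jag1. Of all genes in mesenchyme, 1.99% were called higher and 0.906% lower. In frontonasal-like cluster M0, 1 of 4 was called lower, where 1.46% of all genes were. In satellite glia-like cluster G0, 1 of 2 with enough UMIs was called higher, where 4.81% of all genes were. In M2, 3 of the 4 had enough UMIs and 2 were called lower, where 1.24% of all genes were. Nr2f1, a nuclear receptor of the upper jaw, was at 309.5 CPM in control and 172 CPM in mutant cells, and its relative Nr2f2 at 214 and 121 CPM. Ednra in M2 cells with an Nr2f2 UMI was at 40.3 and 48.2 CPM and in those without at 54.4 and 64.7 CPM, log2 ratios of 0.26 [-0.03, 0.54] and 0.25 [-0.03, 0.53], which both include 0.

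The genes of the signal chain inside the cell were counted next. Of the G proteins and phospholipases, 8 of 9 had enough UMIs in mesenchyme and 0 were called, with a median log2 ratio of -0.01. Of all genes with enough UMIs there, 1.99% were called higher and 0.906% lower, so few calls would be found in any list of this size. Gnaq and Gna11, which encode the Gq proteins used by Ednra, were at 68.3 and 103 CPM in each library. Plcb1, a phospholipase C beta gene, was at 8.33 and 6.38 CPM, a ratio of -0.38 [-0.61, -0.17]. In glia 4 of 9 had enough UMIs and 0 were called, with a median of 0.03 against -0.02 over all genes. Of all genes in glia, 3.18% were called higher and 2.69% lower.

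Among the other ligand and the peptidases, Ece2 and Mme had enough UMIs in mesenchyme and neither was called. Of all genes there, 1.99% were called higher and 0.906% lower. In glia Mme alone had enough UMIs and it was called higher, where 3.18% of all genes were. Mme encodes neprilysin, a peptidase of the cell surface that degrades small peptides, and was at 34.7 CPM in control and 76.0 CPM in mutant glia, a log2 ratio of 1.13 [0.78, 1.49]. By cluster it went from 18.8 to 66.0 CPM in G0 and from 134 to 193 CPM in G3, whereas G2 held only 15 and 6 UMIs.

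Of the genes known as partners of Ednrb in glia and melanoblasts, 3 of 6 had enough UMIs in glia and 0 were called, with a median log2 ratio of -0.11. Of all genes in glia, 3.18% were called higher and 2.69% lower. In mesenchyme 3 of 6 had enough UMIs and 0 were called, with a median of -0.10. Of all genes there, 1.99% were called higher and 0.906% lower. Sox10, the transcription factor of glia and melanoblasts, was at 316 CPM in control and 276 CPM in mutant glia, a log2 ratio of -0.19 [-0.34, -0.05]. Foxd3 was at 85.6 and 79.2 CPM, and Zeb2 at 375 and 365 CPM. None of these 3 genes thus had a higher level in mutant glia. The rest of the list had too few UMIs in glia to be read. Kit, the receptor of melanoblasts, was at 18.2 and 5.40 CPM from only 52 and 15 UMIs. In melanoblast-like cluster G2 the 8-gene melanoblast list summed to 390.1 CPM in control and 174 CPM in mutant cells, with Tyrp1 at 0 in both. The autonomic precursor list summed to 66.0 and 18.0 CPM there. The makeup of G2 thus differed between the libraries. Whether this has a part in the Ednrb ratio of G2 was not tested. The 10-gene glia list itself was at 961 and 1148 CPM in G0, 1246 and 1263 CPM in G2 and 1409 and 1382 CPM in G3.

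Finally, the genes with the most similar pattern were listed. Over 18 points, the mesenchyme clusters and other classes of at least 50 cells in both libraries, the 5 genes with the highest Pearson correlation of log2(CPM + 1) with Ednra among 14003 genes were Serpinf1 (r = 0.985), Frmd6 (0.979), Emilin1 (0.978), Adgra2 (0.974) and Col1a2 (0.970). For Ednrb they were Ttyh1 (0.977), Spata13 (0.971), Nppc (0.968), Chst5 (0.967) and Prdm12 (0.964). Over the 14 points of the mesenchyme clusters alone, the genes most like Ednra were Pex11a (0.924), Arhgap10 (0.896), P3h2 (0.895), Krt8 (0.880) and Mpv17l2 (0.878). The points of a library share its depth and free RNA, and the order is a description of these 2 libraries.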

How the data were processed

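Each deposited matrix holds raw UMI counts of genes by barcodes, which the authors made from 10x Chromium 3′ libraries with Cell Ranger (6.0.0 in the file headers) and mm10. Their annotation release is not given in the sources used here, and gene positions were taken from GENCODE. As in the study, barcodes with over 10% mitochondrial UMIs, under 200 or over 7500 genes were removed (523 control, 476 mutant). Libraries were integrated with Seurat 5.3.0 in R 4.3.3 (2000 variable genes, 30 dimensions) and clustered at a resolution of 0.05. The classes were clustered again in 20 dimensions at 0.3 (mesenchyme), 0.4 (glia) and 0.1 (neuronal). From both steps 33 genes were left out, namely the endothelin genes, the targeted genes and genes named by the study. Genes left out of clustering could still serve as markers for naming. Clusters were named from marker lists when at least 3 markers were higher and no other list held more of the 10 leading genes, haemoglobins left out. Scrublet in scanpy 1.11.5 called 1.62% of control and 2.97% of mutant cells doublets. These were kept, but clusters with over 40% doublets were kept apart.

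UMIs were summed per class or cluster and library and divided by total UMIs (CPM). The kept cells held 82313680 control and 77251738 mutant UMIs. Levels have exact Poisson, log2 ratios exact conditional binomial and shares Clopper-Pearson intervals (scipy 1.17.1). A level of 0 UMIs allows up to 3 counts of the total. Thinning to 5000 UMIs left out 121 control and 173 mutant cells. The genes named are the 5 endothelin genes, those of the pathway lists and the 5 most similar in pattern. Genes and lists were chosen with earlier results of these data known, and the resolutions and the clusters kept apart after seeing the clusters. Alternatives were other resolutions, no integration, removal of doublets, TMM scaling (edgeR 4.0.16), equal weight per cell, thinning, other count minimums, marker-defined regions and, chosen after seeing the data, whole classes, glia with G1 or the doublet-rich cluster added, a mesenchyme resolution of 0.15, fixed cluster shares and removal of the 10 highest cells. The intervals and calls were tested on simulated data. One marker-defined region is not reported here.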

Additional observations from a re-analysis of the deposited data

Results flagged for a closer look

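The Ednra ratio of mutant over control had opposite directions in regions of the mesenchyme. It was 0.30 [0.10, 0.49] on the log2 scale in mandibular-like cluster M2, above 0 beyond counting error. It was below 0 beyond counting error in 3 clusters, at -0.25 [-0.44, -0.05] in maxillary-like cluster M1, -0.36 [-0.61, -0.11] in Hoxa2/Emx2 cluster M4 and -0.69 [-1.19, -0.19] in Cyp26a1/Hmx1 cluster M5. Each group was 1 library, so the difference between the regions was not tested over embryos. The M2 ratio stayed between 0.24 and 0.43 under the 9 alternatives run for it. The interval of the M1 ratio included 0 at the higher clustering resolution (-0.11 [-0.31, 0.09]), without integration (-0.09 [-0.27, 0.10]), after thinning (-0.26 [-0.66, 0.13]) and in cells with a Lhx8 UMI (-0.08 [-0.22, 0.06]). That of the M4 ratio included 0 after thinning (-0.45 [-0.93, 0.02]) and in cells with a Hoxa2 UMI (-0.19 [-0.48, 0.09]). The M5 ratio lay between -0.85 and -0.66 under its 7 alternatives.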

How the results depend on the processing

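Of the values recomputed under the alternatives, 207 stayed within the counting interval of the value reported, or within 1.5 times of a count of genes, and 23 moved beyond it. No ratio whose interval excluded 0 turned direction, but the Ednrb ratio in M4, 2.09 [-1.25, 7.71] from 1 control and 4 mutant UMIs, was -2.34 [-5.59, -0.07] in cells with a Hoxa2 UMI. The Ednra ratio over mesenchyme stayed between -0.24 and -0.13 on the log2 scale, and its glia over mesenchyme ratio between -1.94 and -1.55 in control and between -2.17 and -1.90 in mutant cells. The Ednrb ratio in glia moved to 0.75 with equal weight per cell, to 1.13 over the whole class and to 1.19 with G1 alone added. Its glia over mesenchyme ratio moved to 9.94 in control cells after thinning and, over whole classes, to 7.66 in control and 7.96 in mutant cells. Genes called in mesenchyme numbered 231 higher and 105 lower, 511 and 283 at a minimum of 30 UMIs and 3110 and 1915 at 1 UMI, and in glia 150 and 127, 525 and 393, and 3048 and 2254. The Ednra ratio in M0 moved to -0.51 after thinning, and the Edn3 ratio in mesenchyme to 0.31 [0.03, 0.59] after thinning. The Ednrb ratio in melanoblast-like cluster G2 was 0.23 without integration and in G0 0.82 with equal weight per cell, that of N2 was 0.91 at the higher resolution, and the Ece1 ratio in neuronal cells 0.13 after thinning. The cause of these moves was not tested, except that lower minimums admit more genes. Some clusters found no match under another clustering and have no value there, namely M6 at the higher resolution, M3, M5 and M6 at 0.15, and M0 and M6 without integration. TMM scaling shifted the log2 ratios by -0.03 over all mesenchyme and -0.02 over all glia, and by a different amount in each cluster, from -0.17 in G1 to 0.03 in G3 among those of mesenchyme and glia. No paired analysis was possible because each group had 1 library. With a single library per group, differences between embryos, litters or runs cannot be told apart from genotype, and 154 control and 180 mutant glia bound what can be read from Ednra and Ece1 there. Clusters M5 and M6 and the glial clusters held too few UMIs of most endothelin genes to read a 1.5-fold difference.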
